A study of Mus musculus with 9 samples.

Results

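The genes described here were those that the deposited table listed in dystrophic muscle and not in wildtype muscle. After all records of a gene symbol were summed, a gene was a member when it stood at 0 in all 3 wildtype libraries and above 0 in all 6 mdx libraries. The rule found 116 of 15593 symbols (0.744%). Tnnt2, Cdkn2a, Trem2, Chrng, Timp1 and Mdfi were set aside, which left 110 members. Members were chosen by these deposited values, so the contrast of mdx with wildtype is described here by levels and is not tested, and no fold against wildtype is given.

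Polyadenylated RNA of mouse gastrocnemius, the large calf muscle, was sequenced on an Ion Torrent Proton in 3 groups of 3 libraries. Wildtype mice received vehicle, mdx mice received vehicle, and further mdx mice received 10 mg/kg GTx-026 subcutaneously. All 9 libraries carry the strain label C57BL/6, and GTx-026 belongs to the androgen receptor agonists named in the series title. No age, sex or length of dosing is stated in the labels used here. The series gives 3 mice per group without linking libraries to mice, so every p-value reflects library-to-library spread that may be technical. In what follows, vehicle libraries and GTx-026 libraries are those of mdx mice, and library numbers serve as names alone and match no library with another.

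The mdx mouse lacks full-length dystrophin, the protein that links the contractile apparatus of a muscle fibre to its membrane and the matrix outside. Fibres without it tear during contraction and pass through rounds of death and regeneration. Macrophages clear the debris, fibroblasts lay down matrix, and new fibres express genes of developing and of non-innervated muscle. In whole tissue, more cells of a type and more RNA per cell cannot be told apart.

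The unit is the deposited signal, whose values are close to whole reads multiplied by 1 factor per library. Every library totals 25.1 M to 25.6 M. The smallest value above 0 in the table was 10, and a record at 0 in 1 library of a group was at 0 in all 3. A value of 0 therefore means under this listing limit, not absence. As a group was listed only with all 3 libraries at 10 or more, a wildtype 0 may stand for a group in which as few as 1 library was under the limit. The limit equalled 11.1, 13.1 and 11.9 reads in wildtype libraries 1 to 3.

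Dmd, the dystrophin gene, stood between 1079.7 and 1339.6 in wildtype, between 371 and 535 in vehicle and between 389 and 490.4 in GTx-026 libraries, with no overlap of wildtype with either mdx group. All 16 genes of a skeletal muscle identity list, such as the muscle creatine kinase Ckm, were listed in every group. The general level was highest in vehicle library 1. There the median of symbols listed in every group was 384, against 250.45 to 313 in the other mdx libraries and 235 to 286 in wildtype. A trimmed mean of log ratios over all 9 libraries gave it a factor of 1.28, where the other 8 lay between 0.878 and 1.08. On values divided by these factors, the wildtype limit for a single record was at most 11.4. The summed signal of 54 of the 110 members lay above it in every mdx library. In the 20 members with 2 or more records, wildtype records under the limit could sum to more than 11.4. For them this comparison does not show a level above wildtype.

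To show regulatory sequence of some members, the 250 bases upstream of the start site are printed for 4 of them, picked by hand. They are given with the strand of the gene, from the RefSeq promoter table of GRCm38.p6. The start sites are those of that table, and in Col16a1 the site lies 23 bases inside the gene's outer edge as given below. Capitals mark every match, on either strand, to CAGCTG (an E-box bound by muscle regulators), GGAAGT (an ETS-type core), TGANTCA (AP-1), TGTGGT (RUNX) or TATAAA (the TATA box). Hal is the member with the highest signal, Pirb and Cd300lb are receptors of myeloid cells, and Col16a1 is a collagen gene.
Hal, chr10:93488518-93488767, + strand: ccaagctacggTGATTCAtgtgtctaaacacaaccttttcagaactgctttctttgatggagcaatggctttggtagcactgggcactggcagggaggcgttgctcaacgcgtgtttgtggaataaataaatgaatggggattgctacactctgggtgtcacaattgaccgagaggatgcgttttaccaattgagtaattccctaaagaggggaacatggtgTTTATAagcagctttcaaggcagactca
Pirb, chr7:3720383-3720632, - strand: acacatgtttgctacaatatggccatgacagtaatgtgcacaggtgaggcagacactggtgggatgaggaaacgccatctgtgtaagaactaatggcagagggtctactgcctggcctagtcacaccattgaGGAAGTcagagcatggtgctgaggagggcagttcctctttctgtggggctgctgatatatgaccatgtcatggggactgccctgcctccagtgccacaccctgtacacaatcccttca
Cd300lb, chr11:114934372-114934621, - strand: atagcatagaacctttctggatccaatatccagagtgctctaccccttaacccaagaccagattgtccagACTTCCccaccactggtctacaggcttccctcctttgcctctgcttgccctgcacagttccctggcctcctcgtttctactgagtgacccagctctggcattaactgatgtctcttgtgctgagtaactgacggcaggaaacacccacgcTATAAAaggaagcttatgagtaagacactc
Col16a1, chr4:130047590-130047839, + strand: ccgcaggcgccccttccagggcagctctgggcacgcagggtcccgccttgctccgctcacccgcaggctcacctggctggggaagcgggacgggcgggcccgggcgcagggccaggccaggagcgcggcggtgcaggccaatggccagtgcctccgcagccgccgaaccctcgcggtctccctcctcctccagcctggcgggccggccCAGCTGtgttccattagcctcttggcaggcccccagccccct
In Hal a TATA box in reverse orientation began 28 bases before the start, and in Cd300lb a forward one began 30 bases before it. Pirb and Cd300lb each held an ETS-type core, 118 and 180 bases upstream, and Col16a1 an E-box 42 bases upstream of the start site in the table. The counts that follow, of members and of all promoters, leave out a chromosome named in the processing section. Of the members, 65 had a promoter in the rest of that table, with 85 promoters in all. The ETS-type core was found in 17 of the 85 (20%) and in 19.7% of all 32851 promoters of the same length, the E-box in 14 (16.5%) and 13.001%, AP-1 in 9.41% and 6.75%, RUNX in 9.41% and 14.0%, and the TATA box in 9.41% and 12.4%. A match is a description of letters and not a binding site.

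Most members lay close to the limit. The mean of the 6 mdx libraries ran from 11.9 to 256 with a median over members of 17.6, and 65 members had a mean under 20. In 77 members the lowest mdx library was under 15, and 23 members were at 20 or more in all 6. Together the 110 members summed to a signal of 2823 to 4340 in an mdx library. Of the members, 68 were protein-coding in RefSeq, 13 were long noncoding RNAs, 5 were pseudogenes (4 of them transcribed) and 24, 20 of them LOC models, had no match there.

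**Figure D1:**
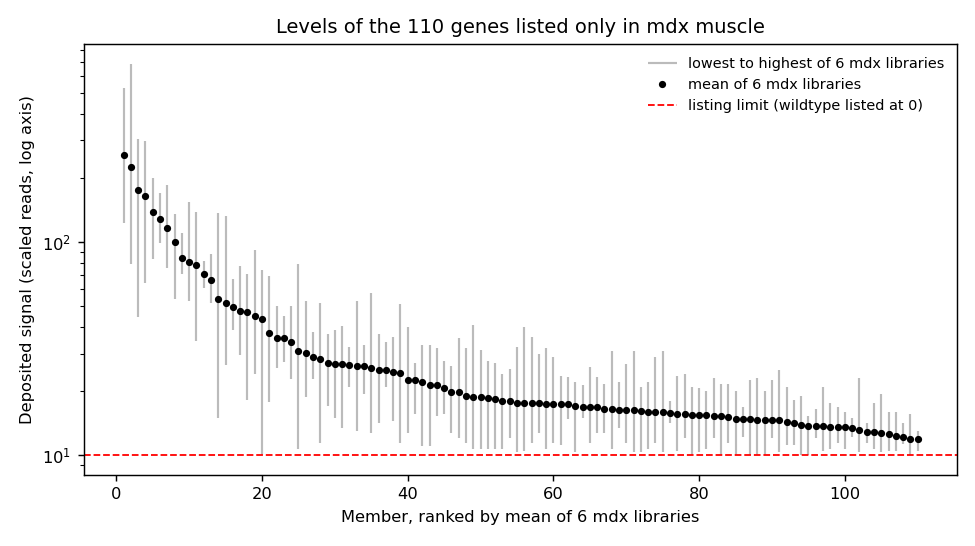
Deposited signal (log axis) of the 110 members, ranked by the mean of the 6 mdx libraries. Points are means, grey bars run from the lowest to the highest mdx library, and the dashed line is the listing limit of 10. The limit applies to a single record, whereas 20 members are sums of 2 or more records. For those the line is not the highest signal that wildtype could have had. The means fall from 256 to 11.9, and the lower ends of most bars sit just above the limit.

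The values just inside and just outside the rule lay close together. LOC105245878, LOC105244127 and BC024063 had the lowest means of the members, 11.9, 12.0 and 12.2. Outside the rule, 50 symbols were listed in mdx vehicle alone, led by the imprinted growth regulator Dlk1 with a mean of 35.3, and 26 in mdx GTx-026 alone, led by Gm31608 with a mean of 62.8. Of the symbols listed in all groups, 805 had a wildtype mean under 20. Gm9946 was the lowest of them, at 11.05 in wildtype and 16.1 in mdx, followed by the neuropeptide receptor gene Vipr2 at 11.08 and 24.3. In the reverse direction 19 symbols were listed in wildtype alone.

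Hal, histidine ammonia-lyase, opens the breakdown of histidine and is best known from liver and skin (chromosome 10, 93488768 to 93516761, GRCm38.p6). Its signal was 192, 123 and 171 in vehicle libraries 1 to 3 and 248, 273 and 531 in GTx-026 libraries 1 to 3. All GTx-026 libraries were above all vehicle libraries. The gene had a single record, and 0.466% of its 50-base words also occurred in transcripts of other genes.

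Some members in the top 20 were more even across the mdx libraries. Slc6a7, a proline transporter of brain synapses (chromosome 18, 60995376 to 61014416), was at 71.0, 83.0 and 80.0 in vehicle and 85.3, 77.2 and 109.9 in GTx-026. Etv4, a transcription factor of the ETS family (chromosome 11, 101769747 to 101785310), was at 51.0, 44.0 and 67.2 and at 49.7, 47.7 and 38.9. The noncoding Gm34006 ran from 61.0 to 81.6, and Proser2 from 51.7 to 88.4. In these 4 genes the mdx groups overlapped, and the highest library held between 19.2% and 22.5% of the 6-library sum.

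Several of these sums rest on more than 1 record, and a read counted for several transcript records would enter the sum more than once. Of the members, 90 had 1 record and 20 had 2 or more. The 5 records of Slc6a7 had means of 12.8 to 18.3 each, and the 5 of Card14 had means of 28.6 to 38.9. For such genes the wildtype 0 likewise means that each record was under the limit, so the rank by summed signal follows the number of records as well as transcript length and abundance.

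Katnal2, a katanin-like microtubule-severing protein (chromosome 18, 76976029 to 77047311), was at 102, 75.9 and 124 in vehicle and 185, 85.8 and 124 in GTx-026. Arhgef37 (chromosome 18, 61491657 to 61536928) was at 54.0, 87.3 and 116 and at 136, 70.2 and 135. In both, the group means differed by less than the SD of the GTx-026 libraries. Rps15a8 (83.2 to 199), LOC105247191 (98.7 to 170.5), LOC105243295 (29.5 to 77.0) and LOC105242887 (18.2 to 71.0) had no match in RefSeq and are named only.

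**Figure D2:**
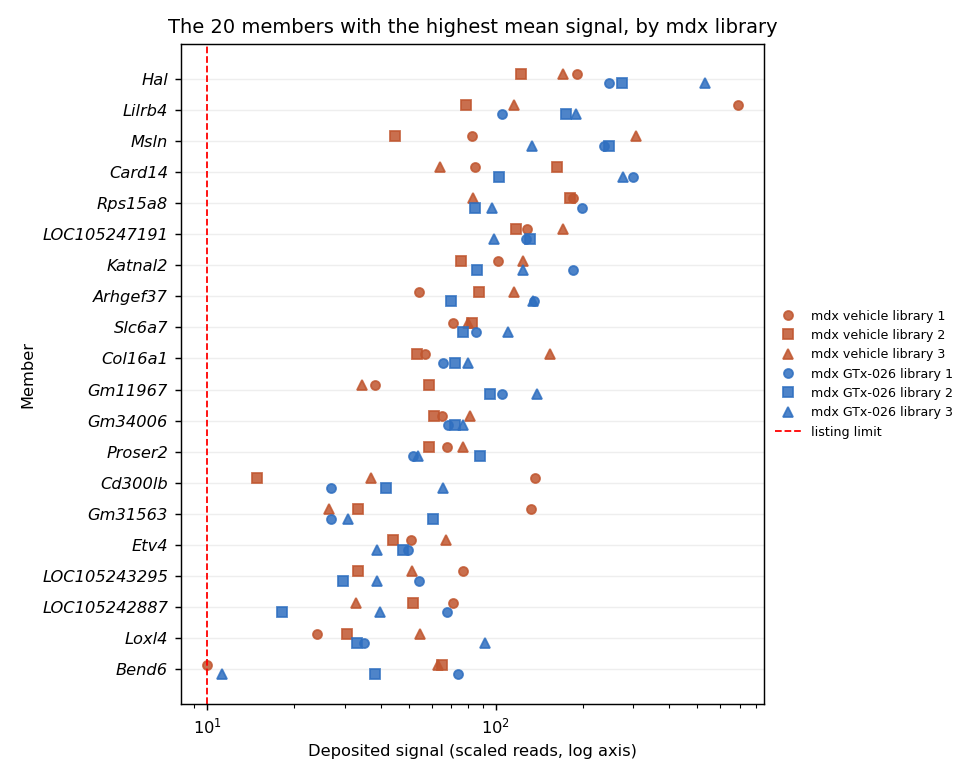
Deposited signal (log axis) of the 20 members with the highest mean, 1 point per mdx library, with vehicle in orange and GTx-026 in blue. Lilrb4, Cd300lb and Gm31563 have vehicle library 1 far to the right of the rest, at 689, 137 and 132, and Bend6 spreads from 10.0 to 73.9.

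The immune receptors and signalling genes formed a group of 11 members. Roles were assigned by hand after the values were seen and carry no test. Lilrb4, an inhibitory immunoglobulin-type receptor of myeloid cells (current symbol Lilrb4a, chromosome 10, 51490898 to 51496613), was at 689 in vehicle library 1, 78.8 and 116 in vehicle libraries 2 and 3, and 105, 175 and 189 in GTx-026. Its mean over the mdx libraries was 225 with vehicle library 1 and 133 without it. Of its 50-base words, 46.7% also occurred in transcripts of other genes, 33.7% in Gm49339. Of its exon bases, 35.9% lie in exons of another gene, Gm49339 on the same strand being the overlapping gene named. Reads there cannot be told apart.

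Cd300lb, an activating receptor of myeloid cells (chromosome 11, 114922779 to 114934371), was at 137, 14.9 and 36.8 in vehicle and 26.9, 41.6 and 65.8 in GTx-026. Pirb, an inhibitory receptor for MHC class I (chromosome 7, 3712505 to 3720382), was at 79.0, 10.6 and 20.01 and at 18.8, 18.2 and 38.1. Ubash3b, a phosphatase that damps receptor signalling in blood cells, was at 58.0, 12.8 and 21.6 and at 19.5, 20.8 and 21.7. In all 3, vehicle library 1 was the highest and vehicle library 2 the lowest. Pirb shared 34.0% of its words with other genes.

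Of the 11 immune members, 6 were highest in vehicle library 1, namely these 4 with Gm11710 (current symbol Cd300ld4, 93.8% of its words shared with Cd300ld5) and Lpcat2, which makes platelet-activating factor. None was highest in vehicle library 2 or 3. Over all symbols above 0 in the mdx libraries, 52.1% were highest in vehicle library 1 as deposited and 27.3% after rescaling with the factors over all 9 libraries. Rescaling with the factors of the test below, taken over the 6 mdx libraries, left the 6 of 11 as it was. Without vehicle library 1, 6 of the 11 were highest in GTx-026 library 3 (4 after rescaling). The share of all symbols highest there was taken only with vehicle library 1 included, at 19.9% as deposited, so this count has no background beside it.

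Macrophage markers moved with these members, as did other immune markers. Of 79 genes in a macrophage and monocyte list, 35 were in the table, of which 33 were listed in every group and Lilrb4 and Pirb only in mdx. The summed signal of the 33 was 2253 to 5491 in wildtype, 40799, 4892 and 15536 in vehicle libraries 1 to 3, and 11304 to 20702 in GTx-026. Vehicle library 1 was thus the highest in this list and vehicle library 2 the lowest of the mdx libraries. The same held for the dendritic and antigen-presenting list, at 48727 and 5764, with 2045 to 16992 in wildtype. It also held for the chemokine and cytokine list, at 10173 and 3186. The 8 measured T and NK cell markers summed to 566 to 1693 in wildtype, to 6032 in vehicle library 1 and to 596 to 1462 in the other mdx libraries. The part of cell number in the members' values was not tested.

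Other immune members did not follow vehicle library 1. Card14, a scaffold for NF-kB activation in skin cells (chromosome 11, 119307093 to 119345379), was at 85, 163 and 64.0 in vehicle and 299, 102 and 277 in GTx-026. Sgsh lies on the opposite strand over 20.7% of its exon bases, and the use of strand in counting is not given in the sources used here. Clec4a3, a C-type lectin receptor of myeloid cells, ranged from 13.5 to 40.4 and its relative Clec4a2 from 10.6 to 31.2. Prtn3, a protease of neutrophil granules (chromosome 10, 79879667 to 79883174), was at 12.0, 14.2 and 16.8 and at 17.5, 35.5 and 23.2. In Prtn3 all GTx-026 libraries were above all vehicle libraries. The epithelial cytokine Tslp stayed between 11.2 and 18.2.

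The matrix and growth-signal members were 13. Msln, mesothelin, a surface protein of mesothelium (chromosome 17, 25748613 to 25754378), was at 83.0, 44.7 and 307 in vehicle and 236, 247 and 134 in GTx-026. Col16a1, a collagen that associates with fibrils (chromosome 4, 130047817 to 130099277), was at 57.0, 53.2 and 154 and at 65.8, 72.0 and 80.0. Cthrc1, which activated fibroblasts secrete (chromosome 15, 39076932 to 39087121), was at 18.0, 17.7 and 69.6 and at 20.1, 40.8 and 58.3. In each of the 3, vehicle library 3 held the highest value of all, 31.9% of the 6-library sum in Col16a1.

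Loxl4, an enzyme of the lysyl oxidase family that crosslinks collagen and elastin (chromosome 19, 42592279 to 42612806), was at 24.0, 30.5 and 54.4 in vehicle and 34.9, 32.9 and 92.0 in GTx-026. Here GTx-026 library 3 was the highest and vehicle library 3 the next. Vash2, a tubulin-modifying vasohibin, ran from 15 to 38.9 and Corin, the protease that activates natriuretic peptide, from 21 to 32.1. The Wnt5a receptor Ror2, the mesenchymal homeobox gene Prrx2, the metalloproteinase Mmp23, Gpr126 and the growth factor Pgf had means of 15.4, 16.1, 17.0, 12.9 and 12.8.

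Of the 13 matrix and growth-signal members, 4 were highest in vehicle library 3 and 5 in GTx-026 library 3. After rescaling with the factors over the 6 mdx libraries these counts were 6 and 4. Only Mmp23 was highest in vehicle library 1 as deposited, and none after rescaling. Over all symbols above 0 in the mdx libraries, 6.95% were highest in vehicle library 3 and 19.9% in GTx-026 library 3 as deposited. With the factors over all 9 libraries these shares were 13.2% and 17.7%. Shares of all symbols with the factors behind the members' rescaled counts were not taken. Of a list of 51 matrix and protease genes none is among the 110, though Timp1, which met the rule and was set aside, belongs to it. The list had 31 genes listed in every group. Their sum was 6440.5 to 11169.5 in wildtype, 17190 in vehicle library 1, 11538 in vehicle library 2, 30811 in vehicle library 3, and 14574, 14853 and 27196 in GTx-026 libraries 1 to 3. Vehicle library 3 and GTx-026 library 3 were the highest in the list as among the members. Whether the list and the members follow the same cells was not tested.

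**Figure D3:**
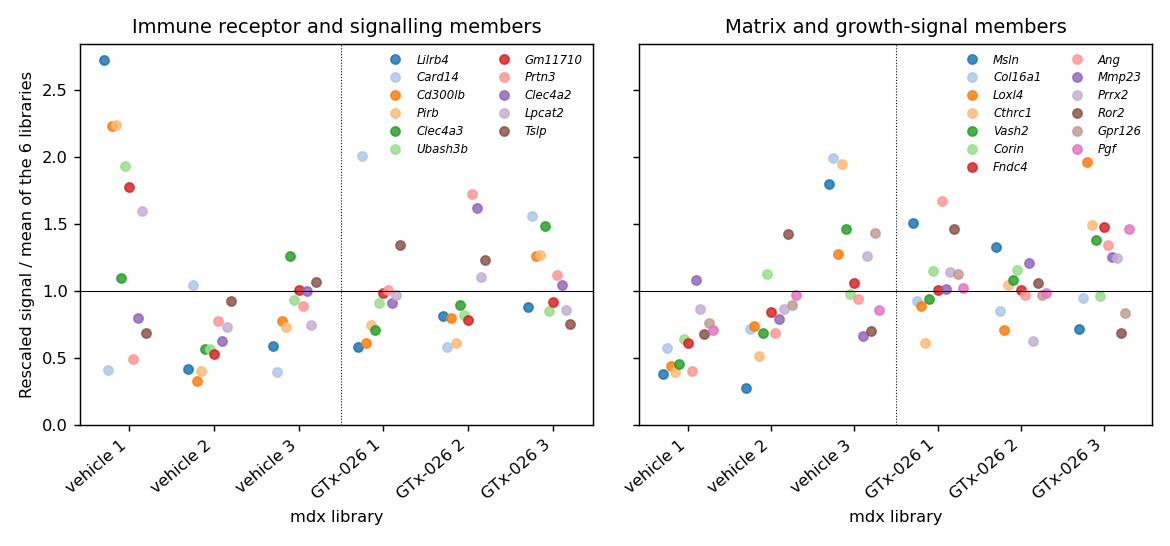
Rescaled signal of each member divided by its own mean over the 6 mdx libraries, for the 11 immune receptor and signalling members (left) and the 13 matrix and growth-signal members (right), 1 point per library. On the left 6 members peak in vehicle library 1, and on the right 6 peak in vehicle library 3.

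Across all 110 members, 38 had their highest deposited value in vehicle library 1 (34.5%, against 52.1% of all 15488 symbols above 0 in the mdx libraries) and 21 in vehicle library 3 (19.1% against 6.95%). Rescaling takes out the general height of a library. With the factors over all 9 libraries, these were 24 (21.8% against 27.3%) and 27 (24.5% against 13.2%). The differences between these shares were not tested.

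**Figure D4:**
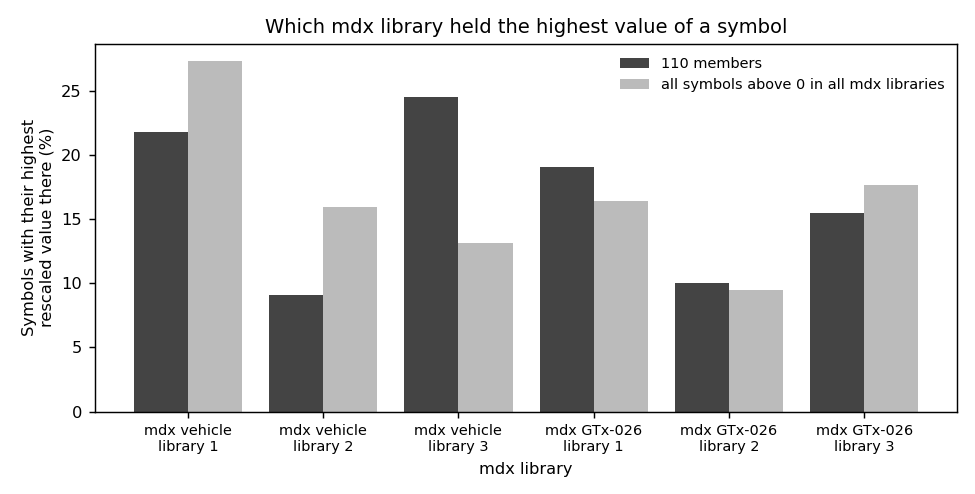
Share of symbols (%) whose highest rescaled value lay in each of the 6 mdx libraries, for the 110 members (dark) and all 15488 symbols above 0 in the mdx libraries (light). Vehicle library 3 held 24.5% of the members and 13.2% of all symbols.

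Genes known from neurons and synapses gave 8 members, with Slc6a7 the highest. Gabrd and Gabrr2, subunits of GABA receptors, ranged from 18.7 to 52.8 and from 17.0 to 37.0. The neuropeptide gene Gal, galanin (chromosome 19, 3409915 to 3414544), was at 19, 11.4 and 50.4 in vehicle and 11.4, 52.0 and 26.2 in GTx-026, so it was high in 1 library of each group. St8sia2, which adds polysialic acid to the adhesion molecule NCAM, ranged from 15.6 to 27.7, and the synaptotagmin gene Syt2 of motor nerve endings from 11.4 to 14.2. Reep2, which shapes the endoplasmic reticulum (chromosome 18, 34840589 to 34847463), was at 42.0, 37.6 and 44.8 in vehicle and 27.5, 32.1 and 28.4 in GTx-026. All its GTx-026 libraries were below all vehicle libraries. Of 13 Schwann cell and neural genes of a fixed list in the table, all 13 were listed in every group.

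Cell division, the cytoskeleton and cilia gave 8 members. Racgap1, which is needed for cytokinesis (chromosome 15, 99620496 to 99651656), was at 36.0 in vehicle library 1 and between 11.4 and 17.3 in the other mdx libraries. E2f8, a repressor of cell-cycle genes (chromosome 7, 48866429 to 48882073), was at 29.9 in GTx-026 library 3 and between 12.8 and 17.6 in the others. These were the only members in a cell-cycle list with 32 of 67 genes in the table, and the other 30 were listed in every group. Those 30 summed to 2961 to 3877 in wildtype, 2399.7 to 5137 in vehicle and 2559 to 4701 in GTx-026, so the groups overlapped. As deposited, vehicle library 1 was the highest of all 9, and after rescaling it was at 3999, below GTx-026 library 3 (4385), wildtype library 3 (4253) and GTx-026 library 2 (4225).

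Hook2, a linker of cargo to microtubules, shows how the listing limit enters a sum. Its sums were 23.0, 27.7 and 24.8 in vehicle and 10.7, 13.01 and 12.0 in GTx-026. One record was listed at 0 in all GTx-026 libraries, and the record listed in every mdx library was at 13, 10.6 and 13.6 in vehicle and 10.7, 13.01 and 12.0 in GTx-026. The reverse held for Fndc4, a secreted protein with a fibronectin domain, in which a record was listed in GTx-026 and at 0 in vehicle. The test below uses only records above 0 in all 6 mdx libraries, and no other member had such a record.

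Bend6, a nuclear protein that restrains Notch signalling (chromosome 1, 33852052 to 33907933), was at 10.0, 65.3 and 63.2 in vehicle and 73.9, 38.1 and 11.2 in GTx-026. The lowest library of each group was thus near the limit and the others well above it. The noncoding Gm31563 (chromosome 4, 45723773 to 45740301) was at 132 in vehicle library 1 and between 26.4 and 60.7 elsewhere. With Lilrb4 (50.9%) and Pirb (42.8%), Gm31563 (42.6%) had the largest share of its mdx sum in a single library, in each case vehicle library 1.

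The rule did not set GTx-026 against vehicle within mdx muscle, so this comparison of treated with untreated dystrophic muscle was tested. It did require both mdx groups to be listed, as did the test for all symbols. The 50 symbols listed in mdx vehicle alone and the 26 in mdx GTx-026 alone were therefore left out. As most members lay close to the limit, this restricts the differences that members could show. No member passed in either direction. The noncoding Gm11967, Card14 and Hal had the largest differences. In Gm11967 and Hal the groups did not overlap, and in Card14 they did. Values were rescaled, compared as log2(signal + 1) with limma over the 6 mdx libraries, and corrected over all 15488 symbols after Benjamini and Hochberg. The comparison called 0 of 110 members and 1 symbol in all (0.00646%), the methyltransferase gene Inmt, which is no member. At an unadjusted p under 0.05 there were 5 members (4.55%), all higher with GTx-026, where the share over all symbols was 2.64% (1.72% higher and 0.923% lower).

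Gm11967 (chromosome 11, 5915267 to 5916762) was deposited at 38.0, 58.9 and 34.4 in vehicle and 105, 95.4 and 139 in GTx-026. After rescaling the means were 43.9 ± 17.8 and 115 ± 21.4 (SD, n = 3 each), a log2 difference of 1.43 (SE 0.32, limma adjusted p = 0.9997). Hal was at 157 ± 23.4 in vehicle and 352 ± 137 in GTx-026 after rescaling (SD, n = 3 each), a log2 difference of 1.104 (SE 0.29, limma adjusted p = 0.9997). The largest value of Hal lay in GTx-026 library 3, at 511 after rescaling, and the other GTx-026 libraries were at 284 and 263. Card14 differed by 1.13 (SE 0.54), with vehicle library 2 at 163 above GTx-026 library 2 at 102. In Gm11967 and Hal the difference between the means was larger than the SD of either group, but neither gene passed over all symbols.

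Ang, the ribonuclease angiogenin (chromosome 14, 51091077 to 51102009), was at 11, 14.2 and 20.01 in vehicle and 32.9, 22.5 and 31.4 in GTx-026. Its log2 difference was 0.97 (SE 0.36, limma adjusted p = 0.9997). Of its exon bases, 18.2% lie in exons of another gene, Rnase4 on the same strand being the overlapping gene named, so reads there cannot be told apart. Prtn3 differed by 0.79 (SE 0.32). Gm10409 was at 33.0, 22.7 and 26.4 and at 50.4, 38.1 and 32.9, a difference of 0.60 (SE 0.28), and its groups were separate after rescaling. All words of Gm10409 also occur in Gm3020, so its reads are uncertain. Fkbp11, a peptidyl-prolyl isomerase of the secretory pathway, was the remaining member at an unadjusted p under 0.05, with a difference of 0.52 (SE 0.21).

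On the lower side, LOC102641168 was at 22.0, 26.3 and 24.0 in vehicle and 12.8, 16.5 and 17.9 in GTx-026 (log2 difference −0.54, SE 0.25). The noncoding Gm34602 was at 23.0, 13.5 and 16.0 and at 10.1, 12.1 and 13.5 (−0.44, SE 0.22). Its highest GTx-026 and lowest vehicle libraries lay next to each other as deposited and at 12.9 and 14.7 after rescaling. Reep2 differed by −0.43 (SE 0.23). In all 3 the GTx-026 libraries lay below the vehicle libraries.

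In all, 11 members (10%) had no overlap between vehicle and GTx-026 after rescaling, where the share over all symbols was 6.96%. Of these, 8 (7.27%) were higher with GTx-026 against 3.72% of all symbols, and 3 (2.73%) lower against 3.24%. Without vehicle library 1 the count was 21 (19.1%), where that of all symbols was 15.4%. The members' median log2 difference was 0.00095, with 55 members above 0 and 55 below, and that of all symbols was 0.0015. On the values as deposited 49 were above 0 and 61 below, as the share of all symbols above 0 was 39.9% there and 50.3% after rescaling. Among matrix and growth-signal members 10 of 13 had a positive difference (median 0.41), and among immune members 7 of 11 (median 0.04). By limma 0 of either group passed.

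**Figure D5:**
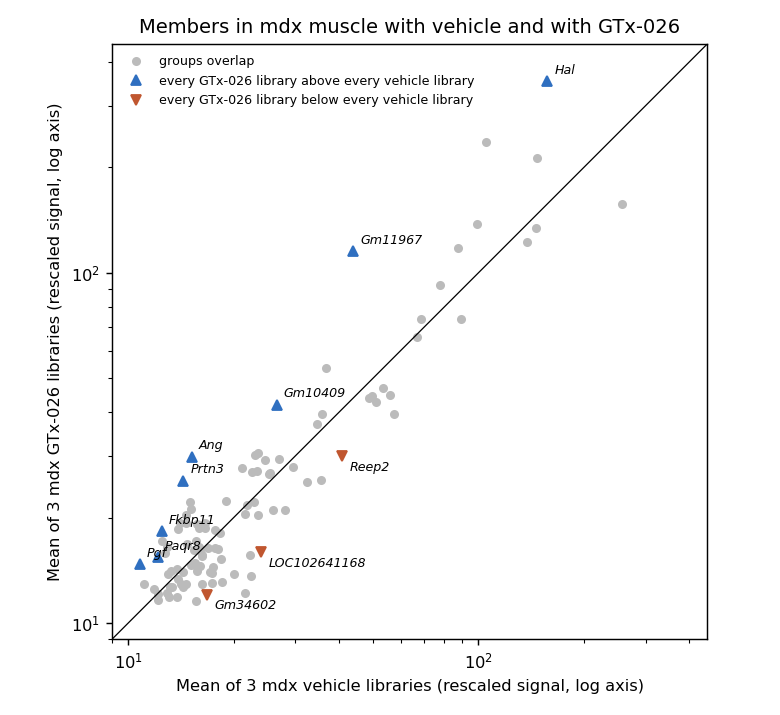
Mean rescaled signal of each member in the 3 vehicle libraries (horizontal) and the 3 GTx-026 libraries (vertical) of mdx mice, both on log axes, with the line of equal values. Named triangles are the 11 members whose groups do not overlap, 8 above and 3 below the line, with Hal and Gm11967 among those above it.

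In the same comparison, 0 genes passed by limma in any of the 17 lists used for these tissues. In the macrophage and monocyte list 17 of 35 tested genes had a positive difference and the median log2 difference was −0.03. In the matrix and protease list 22 of 32 were positive (median 0.10), and in the cell-cycle list 16 of 32 (median 0.0079). At an unadjusted p under 0.05 these lists had 2, 2 and 1 genes higher and 0, 1 and 0 lower, beside the 1.72% and 0.923% of all symbols given above. The lists with medians farthest from 0 were the adipocyte list (7 of 8 positive, median 0.78), the erythroid and megakaryocyte list (9 of 10, 0.69, with 2 genes higher at an unadjusted p under 0.05), the T and NK cell list (0 of 8, −0.67) and the epithelial list (1 of 3, −0.60), followed by the B and plasma cell list (0 of 5, −0.41). In each of these lists the deposited sums of the 2 mdx groups overlapped. The T and NK cell list, rescaled over all 9 libraries, summed to 4696 in vehicle library 1. The other mdx libraries lay between 630 and 1357. The deposited B and plasma cell sum was also highest in vehicle library 1, with 424 to 876 in the other mdx libraries. Whether these medians hold without vehicle library 1 was not tested. The remaining 9 lists had medians between −0.21 and 0.16. These lists were chosen with earlier results of these data known.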

How the data were processed

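The authors deposited 1 table for the series with a signal of scaled reads per library for each of 46442 sequence records. Per the submitters' processing notes the authors used DESeq2 1.6.3, HTSeq 0.6.1p1, Bowtie2 2.2.4, TopHat2 2.0.13 and SAMtools 0.1.19 with build GRCm38.p3, whose roles and order the notes do not state. Group means, a ratio of means and a p-value for each pair of groups, all the authors' own per the file headers, were not used. A column's header shows its group, and no column was tied to a single sample. The 4 records without a symbol (0.000646% of the signal) were left out.

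The members, lists and roles were chosen with earlier results of these data known. Listed reads, estimated as signal divided by the smallest step of a library, ran from 25.1 M to 38.0 M, so the limit of 10 equals 10 to 14.9 reads. No count model was run on these estimated reads. The fit used limma 3.58.1 (R 4.3.3) and a trended prior variance over the 6 mdx libraries (4 residual and 3.77 prior degrees of freedom), two-sided, with a threshold of 0.05. Values were first divided by a trimmed mean of log ratios (trimming 30% by ratio and 5% by level). For the fit, the members' own rescaled values and the counts by role, it was taken over the 6 mdx libraries. It was taken over all 9 libraries for the wildtype limit, the rescaled list sums and the shares of all members and symbols by highest library. The script was tested on simulated data. A log2 difference on log2(signal + 1) understates low genes. Named were the 20 members with the highest mean, members without overlap between mdx groups (up to 5 each way), those in a fixed list, the 3 lowest, and the 3 with the largest share in 1 library. Other members are named by role, after their values were seen.

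Gene positions and biotypes are from RefSeq on GRCm38.p6, where 86 members matched (5 by an older symbol). Promoters on chromosome 18 were left out of the promoter counts. Members there, such as Slc6a7 and Katnal2, are therefore in none of those counts. Shared 50-base words and exon overlaps are from GENCODE M21, which held 80 members.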

Additional observations from a re-analysis of the deposited data

How the results depend on the processing

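The number of members was 110. It was 23 with every mdx library at 20 or more, and 166 when a single record that met the rule was enough for its symbol. It was 54 when rescaled sums over records had to lie above the highest rescaled wildtype limit of a single record. This was a choice made after seeing the data, as were summing all records and the replicate block.

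For GTx-026 against vehicle, 0 members passed under the 12 alternatives by limma, with a lowest adjusted p of 0.772. The 1 symbol called fell to 0 with a prior variance without trend, and ran from 0 to 1 when single libraries were left out (0 without vehicle library 2 or 3 or any GTx-026 library). In those fits with none, 311 to 684 symbols had an unadjusted p under 0.05. That symbol was Inmt. Members at an unadjusted p under 0.05, 5 in the reported fit, were 3 with the deposited scaling (1.90% of all symbols), 2 of the 15 tested at a mean of 50 or more (2.38%), 8 without trend (2.90%), and 3 to 7 when single libraries were left out (2.01% to 4.42%), with 3 without GTx-026 library 1 or 3. Members without overlap, 11 as reported, were 2 at a mean of 50 or more (13.3%, against 6.42% of all symbols), 13 with all records summed, through Hook2 and Fndc4 (11.8% against 7.05%), and 16 to 28 when single libraries were left out (14.5% to 25.5% against 13.9% to 18.8%), since fewer libraries overlap less. The median log2 difference was 0.12 at a mean of 50 or more and lay between −0.02 and 0.08 without single libraries. Hal and Gm11967 kept a positive difference in all 13 fits (0.80 to 1.28 and 1.21 to 1.73), with adjusted p no lower than 0.912 and 0.772. The planned count-model alternatives were not run, since the deposited values are scaled. The labels share no replicate numbers between groups, but the table's columns are numbered 1 to 3 in each. With that number as a replicate block, 0 symbols passed by limma, 430 had an unadjusted p under 0.05, and the members' counts were 0 and 4. Deviations from the group means, across genes, of same-numbered mdx libraries correlated at −0.11, −0.28 and 0.23, and vehicle libraries 1 and 2 correlated best with another number, so the number was not taken to pair libraries.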
